A study of Homo sapiens with 12 samples.

Results

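The replication-dependent histone genes were chosen by symbol: H1-1 to H1-6, and every symbol that starts with H2AC, H2BC, H3C or H4C followed by a number. They came to 62 of the 17818 gene identifiers in the deposited mRNA table, of which 5 encode the linker histone H1, 15 encode H2A, 17 encode H2B, 12 encode H3 and 13 encode H4. The rule used no measured value. Another 8 protein-coding genes with such symbols were not analysed here. The study compared 4 groups of human colorectal cancer cells: SW480 cells labelled USP51-OE, in which the ubiquitin protease USP51 was overexpressed, SW480 cells with a vector (labelled NC), HCT116 cells labelled USP51-OE, and HCT116 cells with a vector (NC). All 4 groups were grown in DMEM with fetal bovine serum, and total RNA was taken with TRIzol for BGISEQ libraries, 3 libraries per group by the labels. The sources used here do not give the promoter of the transgene or say whether the cells were pools or clones.

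Each nucleosome holds a core of histones H2A, H2B, H3 and H4, with H1 on the linker DNA. The replication-dependent genes supply most of this protein while DNA is copied in S phase. They lie in clusters with hardly any introns, and their mRNAs typically end in a conserved stem-loop, bound by SLBP, in place of a poly(A) tail. Some of them also give polyadenylated transcripts that run past the stem-loop. USP51 is known as a protease that removes ubiquitin from histone H2A, so its substrate is itself the product of this gene set.

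The values are the authors' means of a group, so no spread between libraries, n or p-value can be given with them. Their columns name the line and the letter C or E, which was read as control (NC) and USP51 overexpression, since the study's text sets control against overexpression. No label defines the letters. The columns of single libraries carry codes that match no label and were not used. Mean counts summed to 15920306 in SW480 USP51, 15625249 in SW480 NC, 15506686 in HCT116 USP51 and 15823540 in HCT116 NC cells. USP51 had 25.7 TPM in SW480 USP51 cells, against 0.513 TPM in SW480 NC cells, and 40.8 TPM in HCT116 USP51 cells, against 0 TPM in HCT116 NC cells. TPM is a transcript's level per length, scaled so that every group has the same total. All 7 epithelial markers reached 1 TPM in at least 1 group, with summed levels of 6184 to 11474 TPM. VIL1 did so in SW480 cells only, at 12.5 TPM with USP51 and 7.55 TPM with NC. In HCT116 cells VIL1 was at 0.02 TPM with USP51 and 0.03 TPM with NC. The endothelial list summed to at most 0.313 TPM and the leukocyte list to at most 3.20 TPM. The fibroblast list summed to between 1.497 and 15.4 TPM, nearly all of it COL1A1, and was higher in HCT116 than in SW480 cells. Its part in the results was not tested.

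The 3′ stem-loop, near which the processed mRNA ends, was looked for in the annotated transcripts. All 62 members matched 64 GENCODE v29 transcripts by RefSeq accession. Of these, 30 end at the stop codon, so their 3′ ends could not be searched. Of the 34 with a 3′ UTR, 28 transcripts of 28 genes hold the 16-base motif GGNNCTTTTNNGNNCC on the transcript's strand, a stem of 6 bases around a loop of 4. The stem pairs in full in 27 of them. Shown here are the 5 distinct stem-loops of the set, taken where possible from the high members, in hg38 coordinates and 5′ to 3′ on the gene's own strand. Capitals mark the paired arms of the stem.
H2AC18, chr1:149842216-149842245, minus strand: ctcaaaaGGCTCTtttcAGAGCCacccacg
H2AC25, chr1:228457362-228457391, minus strand: acataaaGGCTCTtttcAGAGCCacctact
H2AC6, chr6:26124662-26124691, plus strand: acccaaaGGCTCTtttcAGAGCCcccctac
H2BC21, chr1:149886181-149886210, minus strand: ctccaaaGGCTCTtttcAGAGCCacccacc
H2BC5, chr6:26158580-26158609, plus strand: tcccaaaGGCTCTtttaAGAGCCacgcatg
H2AC11, chr6:27133508-27133537, plus strand: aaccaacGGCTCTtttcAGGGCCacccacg
H4C16, chr12:14770717-14770746, minus strand: tccaaaaGGCCCTtttcAGGGCCcccaaac
H4C14, chr1:149833025-149833054, plus strand: tcccaaaGGCCCTttttAGGGCCgaccact
The form seen in H2AC18, H2AC25, H2AC6 and H2BC21 was shared by 15 genes of the H2A, H2B and H3 classes. A loop ending in A was found in H2BC4, H2BC5, H2BC7 and H3C8. The 8 H4 genes with a motif had the stem GGCCCT, in 5 genes with the loop of H4C16 and in 3 genes with the loop of H4C14. The stem of H2AC11 was the single one that does not pair in full. These GENCODE models run on for more than 100 bases after the stem-loop in 19 of the 28 genes. The counts were made on RefSeq models, and the RefSeq gene spans (GRCh38.p14) end within 100 bases of it in 23 of the 28, among them H2AC18 and H2AC6. That of H2BC21 runs on for 1729 bases in both annotations. The longer model of H2BC5, NM_138720.2, holds no such motif after its stop codon.

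The promoters differed by class. In windows from 250 bases before to 50 bases after the RefSeq start (GRCh38.p14), the octamer ATTTGCAT, the site of the POU factors OCT1 and OCT2, was found on either strand in 71.4% of the 14 H2A windows and 73.7% of the 19 H2B windows. It was in 8.33% of the 12 H3 windows, through a second start of H3C4 whose window is also that of H2AC7, in none of the 5 H1 and 11 H4 windows, and in 1.77% of all 35116 promoters. CCAAT, bound by NF-Y, was in every H1, H2A, H2B and H3 window and in 18.2% of H4 windows, against 34.6% of all promoters. TATAAA was in 63.9% of member windows and 11.5% of all promoters. These matches are letters in a window and were not tested for binding.

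Among members with a promoter window, 10 pairs of an H2A and an H2B gene lie head to head. Their starts are 194 to 248 bases apart (median 238). H2AC12 had no window, so its head-to-head pair with H2BC12 was not included. The start of H2BC12 (minus strand) is at chr6:27146858 and that of H2AC12 (plus strand) at chr6:27147106. The stretches between the starts of 4 pairs are given for their differing levels, described further on, with octamer, CCAAT and TATAAA matches of either strand in capitals.
H2AC20 and H2BC21, chr1:149886683-149886917, plus strand: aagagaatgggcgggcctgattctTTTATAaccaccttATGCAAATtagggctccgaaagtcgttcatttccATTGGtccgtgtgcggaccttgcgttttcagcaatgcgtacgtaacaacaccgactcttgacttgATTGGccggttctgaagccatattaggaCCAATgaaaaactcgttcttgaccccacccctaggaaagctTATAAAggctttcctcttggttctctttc
H2AC6 and H2BC4, chr6:26123927-26124171, plus strand: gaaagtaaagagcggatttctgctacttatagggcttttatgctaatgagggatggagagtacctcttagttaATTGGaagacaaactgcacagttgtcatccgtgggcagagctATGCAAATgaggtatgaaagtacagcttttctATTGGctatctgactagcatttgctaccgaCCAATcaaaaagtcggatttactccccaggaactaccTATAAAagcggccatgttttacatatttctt
H2AC8 and H2BC8, chr6:26216689-26216920, plus strand: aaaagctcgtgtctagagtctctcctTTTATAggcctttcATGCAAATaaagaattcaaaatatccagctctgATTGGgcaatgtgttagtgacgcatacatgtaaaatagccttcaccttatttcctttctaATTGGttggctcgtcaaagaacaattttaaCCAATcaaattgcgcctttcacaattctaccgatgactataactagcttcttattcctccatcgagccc
H2AC25 and H2BC26, chr1:228457874-228458102, plus strand: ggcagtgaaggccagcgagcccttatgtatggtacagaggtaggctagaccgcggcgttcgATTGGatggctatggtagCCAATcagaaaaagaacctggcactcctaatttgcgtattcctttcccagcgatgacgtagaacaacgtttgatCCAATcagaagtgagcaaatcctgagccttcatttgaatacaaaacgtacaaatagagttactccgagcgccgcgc
CCAAT was present between the starts of all 10 pairs, and the octamer and TATAAA in 7 pairs each. The stretch of H2AC20 and H2BC21 holds 1 octamer, 3 CCAAT and 2 TATAAA matches. Those of H2AC6 with H2BC4 and of H2AC8 with H2BC8 each hold 1 octamer, 3 CCAAT and 1 TATAAA match. The stretch of H2AC25 and H2BC26, which lie apart from the large clusters, holds 3 CCAAT matches and neither of the other motifs.

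Few members carried most of the histone counts. The sources used here do not say how RNA was captured, and most of these mRNAs typically lack a poly(A) tail. The shares therefore describe the counts and need not match the make-up of histone mRNA in the cells. The 62 genes summed to 4616 counts in SW480 USP51, 4538 in SW480 NC, 992 in HCT116 USP51 and 969 in HCT116 NC cells. Only 10 members reached 20 counts in any group, and they held 92.9% of histone counts in SW480 USP51, 93.2% in SW480 NC, 86.9% in HCT116 USP51 and 86.2% in HCT116 NC cells. The median member had 5.67, 7, 2.17 and 2 counts in the same groups. Most single members are therefore too shallow for a comparison of their own, and sums by class are used beside them. H2AC8, with 21 counts, was just inside this limit of 20, and H2BC4, with 18.3, just outside it.

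H2BC12, which encodes an H2B, was the highest member in counts in every group, with 1668 in SW480 USP51, 1789 in SW480 NC, 362 in HCT116 USP51 and 344 in HCT116 NC cells. Its level was 274, 307, 65.0 and 59.7 TPM in that order, high in both SW480 groups and low in both HCT116 groups. Between 98.4% and 99.6% of its counts fell on NM_080593.2, the longer of its RefSeq models. H2BC12 overlaps H4C9, and the sources used here do not say whether counting used strand.

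H1-2, a linker histone, held 97.0% to 99.3% of all H1 counts. It had 912 counts in SW480 USP51, 960 in SW480 NC, 191 in HCT116 USP51 and 164 in HCT116 NC cells, or 184, 203, 41.6 and 34.5 TPM. The other H1 genes, H1-1, H1-4, H1-5 and H1-6, were each at or below 0.970 TPM in every group.

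H2AC18 led the H2A class in SW480 cells, with 655 counts in USP51 and 534 in NC cells, against 50.3 in HCT116 USP51 and 51.3 in HCT116 NC cells. Its levels were 236, 201, 19.4 and 19.1 TPM. H2AC25 led the class in HCT116 cells, with 54.7 counts in USP51 and 75.7 in NC cells, where H2AC18 was lower. In SW480 cells H2AC25 had 172 counts with USP51 and 128 with NC, so that its levels were 67.9, 52.6, 23.1 and 30.9 TPM over the 4 groups. H2AC6 was at 51.3 and 50.02 TPM in the SW480 groups and at 17.9 and 19.0 TPM in the HCT116 groups.

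H2AC20 ran the other way between the lines, with 11.9 TPM in SW480 USP51 and 14.6 in SW480 NC cells, against 18.3 in HCT116 USP51 and 20.7 in HCT116 NC cells. H2BC21 had 425 and 358 counts in the SW480 groups and 37.0 and 36 in the HCT116 groups. Per length it was only at 19.8, 17.6, 1.88 and 1.75 TPM on a long transcript model: 1 TPM of H2BC21 corresponded to 20.4 counts in SW480 NC cells, against a median of 2.21 counts over 47 histone transcripts. H2BC5 was at 43.5 TPM in SW480 USP51, 47.1 in SW480 NC, 16.5 in HCT116 USP51 and 13.8 in HCT116 NC cells, with 87.6% to 94.1% of its counts on NM_138720.2, the model without a stem-loop motif.

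The H3 and H4 genes were all low in counts, with the same limit of unknown RNA capture. H3C4 had the most counts of the H3 class in 3 groups, with 15.6 and 17.0 in SW480 USP51 and NC cells and 7.22 in HCT116 NC cells. In HCT116 USP51 cells it had 5.13, and H3C10 led with 6.33. H4C14 and H4C15 were listed with the same values, 17 and 14.7 counts in the SW480 groups and 2.17 and 3 in the HCT116 groups. Their coding sequences of 312 bases are identical, as are those of H4C11 and H4C12, so reads within the coding sequence cannot be told apart. H4C11 and H4C12 were listed with differing values, such as 3.46 and 16.5 counts in SW480 USP51 cells. Each of these copies is reported as uncertain. H3 made up 1.502% (95% exact binomial interval 1.16% to 1.89%) of histone counts in SW480 USP51 cells and 1.37% (1.05% to 1.75%) in SW480 NC cells. H4 made up 1.88% (1.51% to 2.32%) in SW480 USP51 cells and 1.67% (1.322% to 2.09%) in SW480 NC cells. In HCT116 USP51 and NC cells H3 made up 2.94% (1.97% to 4.17%) and 3.26% (2.27% to 4.63%), and H4 2.59% (1.72% to 3.82%) and 3.68% (2.62% to 5.11%).

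**Figure D1:**
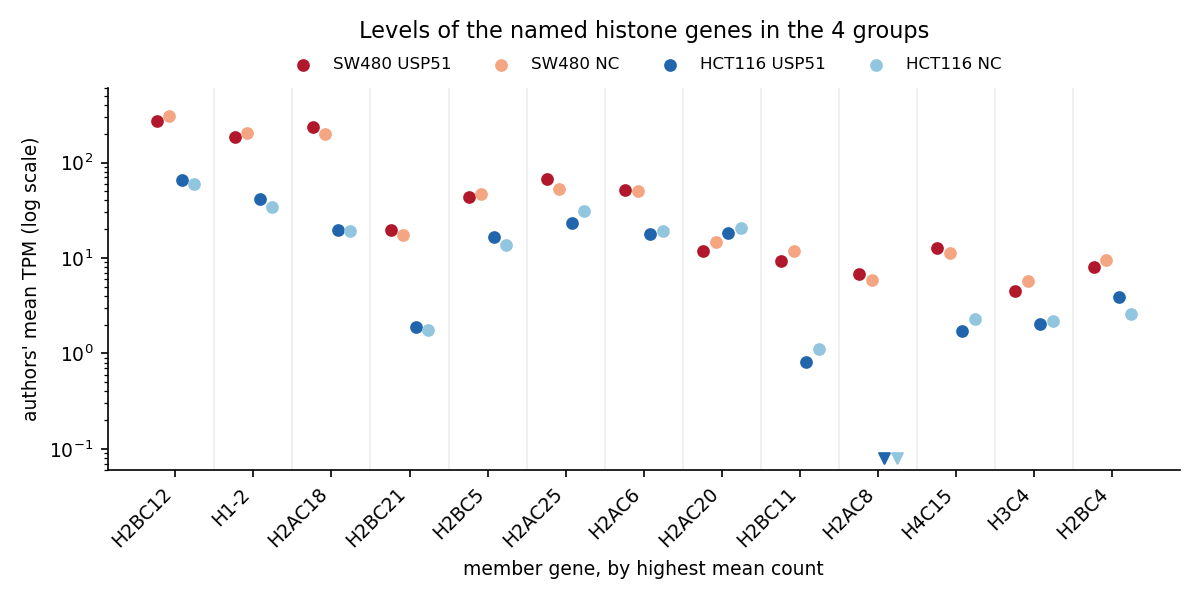
Mean TPM (log axis) of 13 named members in SW480 USP51, SW480 NC, HCT116 USP51 and HCT116 NC cells. Each point is the authors' mean of a group, and triangles at the foot mark a level of 0. H2BC12 sits highest in both SW480 groups, H2AC20 is the one of the 13 whose HCT116 points both lie above its SW480 points, and H2AC8 is at 0 in both HCT116 groups.

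Summed by class, H2B held 53.0% of histone counts in SW480 USP51 and 55.4% in SW480 NC cells, and 50.9% in HCT116 USP51 and 48.7% in HCT116 NC cells. H2A held 23.6%, 20.3%, 23.8% and 26.8%, and H1 held 19.97%, 21.3%, 19.9% and 17.5% in the same order. H2BC12 held 68.1% to 72.8% of the H2B counts of a group. H2AC18 held 60.2% and 58.1% of H2A counts in SW480 USP51 and NC cells, while H2AC25 led in HCT116 USP51 and NC cells with 23.2% and 29.1%. Per length the order was closer, with H2A at 38.1% and H2B at 36.0% of histone TPM in SW480 USP51 cells, and at 33.7% and 39.5% in SW480 NC cells.

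**Figure D2:**
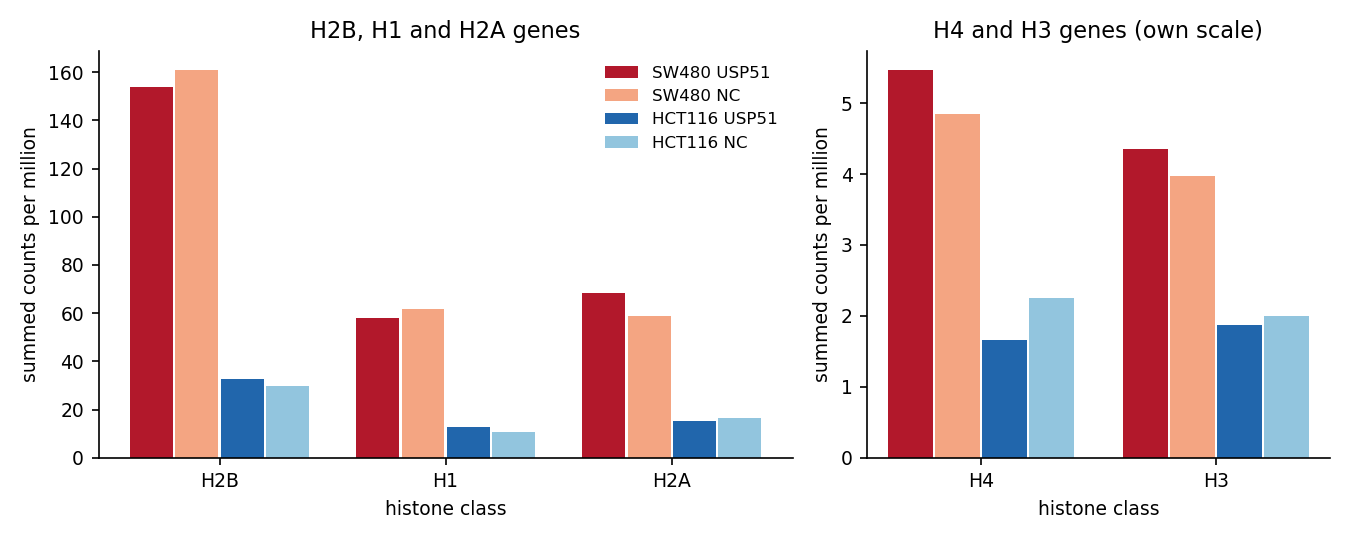
Counts scaled to the total count (CPM), summed over the members of each class, in SW480 USP51, SW480 NC, HCT116 USP51 and HCT116 NC cells. H4 and H3 have an axis of their own. H2B stood at 154 and 161 in SW480 USP51 and NC cells, and at 32.5 and 29.9 in HCT116 USP51 and NC cells.

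The first comparison asks whether histone RNA differed with USP51 in SW480 cells. The sum over all members was 289.9 CPM (counts scaled to the total count of the group) in USP51 cells and 290.4 in NC cells, a ratio of 0.998 with a 95% exact (Clopper-Pearson) interval of 0.958 to 1.04. This interval and those that follow cover counting error only, with a group mean taken as the count of 1 library, and say nothing of the spread between cultures. The interval of the H2A sum alone lay off 1, at a ratio of 1.16 (1.06 to 1.27), with 68.4 CPM in USP51 cells and 58.9 in NC cells. Without H2AC18 the H2A ratio was 0.14 on the log2 scale, against 0.22 with it, and its interval, 0.960 to 1.27 as a ratio, included 1. The ratio was 0.936 (0.854 to 1.03) for H1, 0.956 (0.904 to 1.01) for H2B, 1.10 (0.764 to 1.56) for H3 and 1.128 (0.816 to 1.55) for H4.

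Of single members in SW480 cells, 3 had an interval above 1, against 13.6% of all 12175 genes measured, and 1 had an interval below 1, against 14.2%. A gene counted as measured when it reached 1 TPM in at least 1 of the 2 groups, which 46 members did. Those above were H2AC18 at 1.20-fold (1.07 to 1.35), H2AC25 at 1.3197-fold (1.04 to 1.67) and H2BC21 at 1.16-fold (1.01 to 1.34). The one below was H2BC12, at 0.915 (0.856 to 0.979). These are among the deepest members, and shallower ones cannot show changes of this size. The share of members on either side was below that of all genes.

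By size, 2 members were at least 1.5-fold higher with USP51 in SW480 cells on the log2(TPM + 1) scale, where 0.534% of all genes were, and 2 were at least 1.5-fold lower, where 0.887% of all genes were. This limit is one of size, with no test behind it. All of them rested on a handful of counts. H4C5, an H4 gene, had 5.67 counts in USP51 and 1.33 in NC cells, and H4C13 had 1.33 and 0 counts. H2AC12 had 1.33 counts in USP51 and 5 in NC cells. H4C11 had 3.46 counts in USP51 and 7.67 in NC cells, but summed with its identical copy H4C12 it had 20 counts in USP51 and 19 in NC cells. At 2-fold the same 4 genes stood out, where 0.0739% of all genes were higher and 0.123% lower. The median log2 ratio was 0.05 over the measured members and -0.04 over all genes.

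In HCT116 cells, the sum over all members was 64.0 CPM with USP51 and 61.2 with NC, a ratio of 1.04 (0.955 to 1.14). Every class interval included 1. H1 stood at 1.19 (0.964 to 1.47), H2B at 1.09 (0.959 to 1.24), H3 at 0.942 (0.540 to 1.58) and H4 at 0.734 (0.427 to 1.25). The H2A sum, at 0.924 (0.773 to 1.11), was below 1 here and above 1 in SW480 cells, and the difference between the lines was not tested. H2AC25 had 54.7 counts in USP51 and 75.7 in NC cells, a ratio of 0.737 (0.512 to 1.06), while its SW480 ratio was 1.3197.

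No member had a counting interval off 1 in HCT116 cells, against 17.1% of 12393 genes above 1 and 11.7% below. The members are shallower here than in SW480 cells. By size, 3 were at least 1.5-fold higher, where 1.96% of all genes were, and 1 was at least 1.5-fold lower, where 0.145% of all genes were. H2AC11 had 8.67 counts in USP51 and 4.67 in NC cells, H2AC7 had 4.87 and 0.783, and H2BC18 had 3 and 1. H2AC7 overlaps H3C4, which ran the other way, with 5.13 counts in USP51 and 7.22 in NC cells. The split of reads between H2AC7 and H3C4 is uncertain, and so is the H2AC7 ratio. H4C5, higher in SW480 USP51 cells, was the lower one here, with 2 counts in USP51 and 4.33 in NC cells. At 2-fold H2AC7 was higher, where 0.258% of all genes were, and no member was lower, where 0.0242% were. The median log2 ratio was -0.10 over the 34 measured members and 0.04 over all genes.

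**Figure D3:**
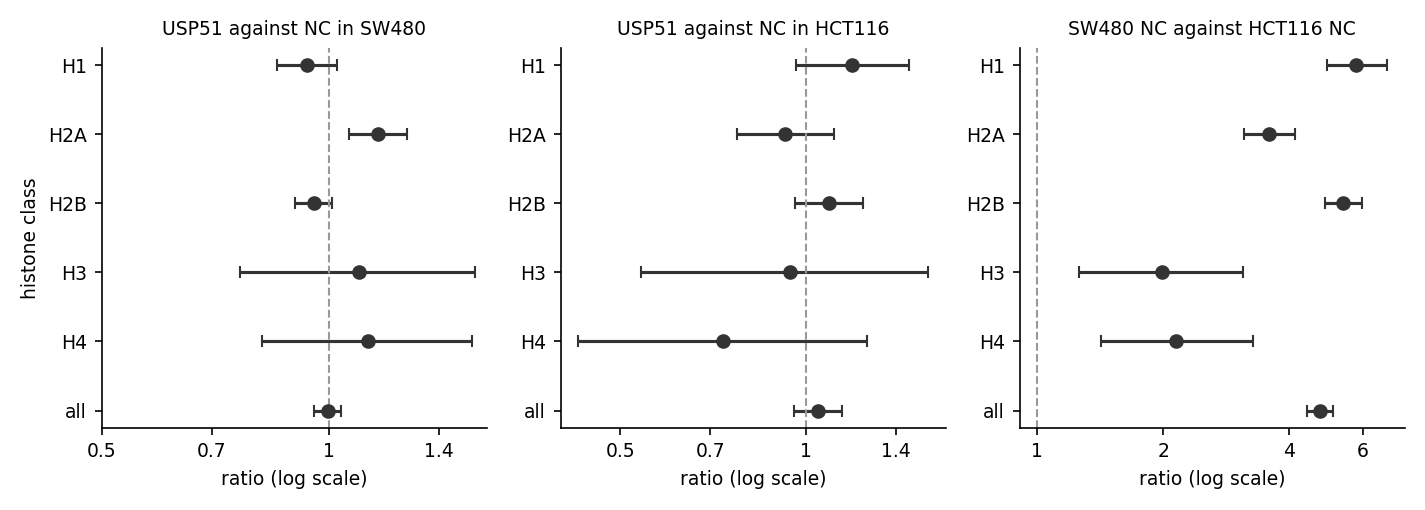
Ratio of counts per total count (log axis) for each histone class and for all members, in USP51 against NC cells of SW480, in USP51 against NC cells of HCT116, and in SW480 NC against HCT116 NC cells. Each panel has its own axis. Bars are 95% exact intervals of counting error and the dashed line marks 1. Of the USP51 comparisons, the H2A sum in SW480 (1.06 to 1.27) is the one whose bar leaves 1, while every bar between the lines lies above it.

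The lines themselves differed far more than the USP51 groups did. Histone RNA was 290.4 CPM in SW480 NC cells and 61.2 in HCT116 NC cells, a ratio of 4.74 (4.42 to 5.09), or 3.97 in summed TPM. Cell number and RNA per cell cannot be told apart in such bulk RNA. The 2 NC groups also serve as the base of the USP51 comparisons, so the 3 comparisons are not independent. The share of total counts that histone genes take also depends on how RNA was captured for the libraries, on which the sources used here are silent.

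The ratio between the lines was 5.78 (4.92 to 6.86) for H1, 5.39 (4.88 to 5.96) for H2B and 3.58 (3.12 to 4.13) for H2A. It was lower for H3, at 1.99 (1.26 to 3.11), and H4, at 2.15 (1.42 to 3.27). The 52 members under 20 counts in every group had a ratio of 2.35 (1.91 to 2.91) together. Without its leading member the ratio of the H2A sum was 0.90 on the log2 scale, against 1.84 with it, and that of H1 was 0.43 without H1-2, against 2.53 with it. The interval of the H1 ratio without H1-2, 0.387 to 5.67, includes 1. The H2B ratio was 2.51 on the log2 scale without H2BC12, against 2.43 with it, and the 13 H2B members under 20 counts were 3.55-fold higher (2.20 to 5.77) together.

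By size, 32 members were at least 1.5-fold higher in SW480 NC than in HCT116 NC cells, where 22.6% of 13033 genes were, and 3 were at least 1.5-fold lower, where 27% were. Of the 47 measured members, 28 reached 1 TPM in both groups, 16 in SW480 alone and 3 in HCT116 alone, so many passed the limit only through the group in which they are high. Over all 62 members with no limit, 49 had more counts per total in SW480 NC cells, 10 had fewer and 3 were at 0 in both. All 17 H2B genes were on the higher side. At 2-fold 28 members were higher, where 13.4% of all genes were, and 1 lower, where 14.7% were. The counting interval lay above 1 for 22 members, against 38.8% of all genes, and below 1 for none, against 45.1%.

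H2AC18 was 10.5-fold higher (7.95 to 14.4) in SW480 NC cells in counts per total, and H2BC21 10.1-fold higher (7.14 to 14.6). H2BC12 was 5.27-fold higher (4.69 to 5.93) and H2BC5 3.90-fold (2.96 to 5.16). H2AC6 was 2.64-fold higher (1.89 to 3.79) and H2AC25 1.71-fold (1.27 to 2.30). H2BC11 had 25.3 counts in SW480 NC and 2.33 in HCT116 NC cells, 10.99-fold with a wide interval of 3.16 to 110. H2AC8 had 17.7 counts in SW480 NC and 0 in HCT116 NC cells. Its ratio is 5.96 if the 0 is set to a floor of 3 counts in the group mean, while the exact interval starts lower, at 4.45. H2AC20 was lower in SW480 NC cells, at 0.706 with an interval of 0.441 to 1.13. The 3 lower by size were H2AC14, with 7.35 counts in SW480 NC and 14.3 in HCT116 NC cells, H3C6 with 1.33 and 4, and H4C5 with 1.33 and 4.33.

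The order of the members was alike within a line. Spearman's rho of member TPM was 0.94 between USP51 and NC cells of SW480 and 0.94 between those of HCT116, against 0.61 between the NC groups of the lines. Each is a description over 62 genes that share libraries, with many values near 0.

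Along the genome the members fall into 6 groups at least 100 kb apart. On chromosome 1, 9 members at chr1:149782689-149887965 were together 6.67-fold higher (5.62 to 8.002) in SW480 NC than in HCT116 NC cells, and 4.62-fold (3.70 to 5.82) without H2AC18. On chromosome 6, 29 members at chr6:26017032-26285534 were 4.66-fold higher (4.126 to 5.27), and 5 members at chr6:27132316-27147562 with H2BC12 were 5.28-fold higher (4.71 to 5.94). The 16 members at chr6:27807479-27893891 were 1.48-fold higher (1.09 to 2.06), and 1.34-fold (0.957 to 1.86) without H2AC13. This last group, which holds no member above 20 counts, stood nearest to HCT116, and the pair H2AC25 and H2BC26 at chr1:228457364-228458558 was 1.74-fold higher (1.31 to 2.33).

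The same groups showed small ratios for USP51. In SW480 cells the ratio was 1.18 (1.08 to 1.28) for the 9 members on chromosome 1, 1.30 (1.03 to 1.63) for H2AC25 with H2BC26 and 0.913 (0.855 to 0.976) for the 5 members around H2BC12. In the first of these groups both H2AC18 and H2BC21 had an interval above 1 of their own. They held 655 and 425 of its 1171 counts in SW480 USP51 cells. In the same cells H2AC25 held 172 of the 177 counts of its pair, and H2BC12 held 1668 of the 1710 counts of its group. These ratios thus largely restate single members, and an effect of region was not tested. The intervals of the remaining groups in SW480 cells included 1. Their ratios were 0.960 for the 29 members, 0.994 for the 16 members and 0.888 for H4C16. In HCT116 cells H4C16 was at 0 in both groups and had no ratio, and the intervals of all other groups included 1.

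Several members were undetected in HCT116 cells alone. In HCT116 USP51 cells 14 members and in HCT116 NC cells 18 had 0 counts, against 2 in SW480 USP51 and 3 in SW480 NC cells. Of 12 members at 0 in both HCT116 groups, 10 were above 0 in both SW480 groups. The 12 were H1-5, H2AC8, H2BC3, H2BC9, H2BC10, H3C3, H3C7, H3C8, H3C11, H4C8, H4C13 and H4C16. None of the 12 was above 21 counts in an SW480 group, the count of H2AC8 in SW480 USP51 cells. The share of all genes at 0 in these groups was not counted, so nothing particular to histone genes can be read from this. H1-1 alone was at 0 in both SW480 groups. A count of 0 allows up to 0.193 CPM in HCT116 USP51 and 0.1896 in HCT116 NC cells.

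Many of these genes were neighbours. The 8 members from H2BC8 to H4C8, at chr6:26216200-26285534, were singled out after their values were seen. Together they had 61 counts in SW480 USP51 and 57.7 in SW480 NC cells, against 3.67 in HCT116 USP51 and 4 in HCT116 NC cells. That is 14.6-fold between the NC groups, given without an interval because the stretch was chosen on these same values. In HCT116 cells 6 of the 8 were at 0 with USP51 and 7 with NC. H3C6 was the exception, with 0.333 and 1.33 counts in the SW480 groups and 3.33 and 4 in the HCT116 groups. H3C8 had 12 and 11.3 counts and H2BC9 had 9.67 and 8.33 in SW480 USP51 and NC cells, and both were at 0 in HCT116 cells.

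**Figure D4:**
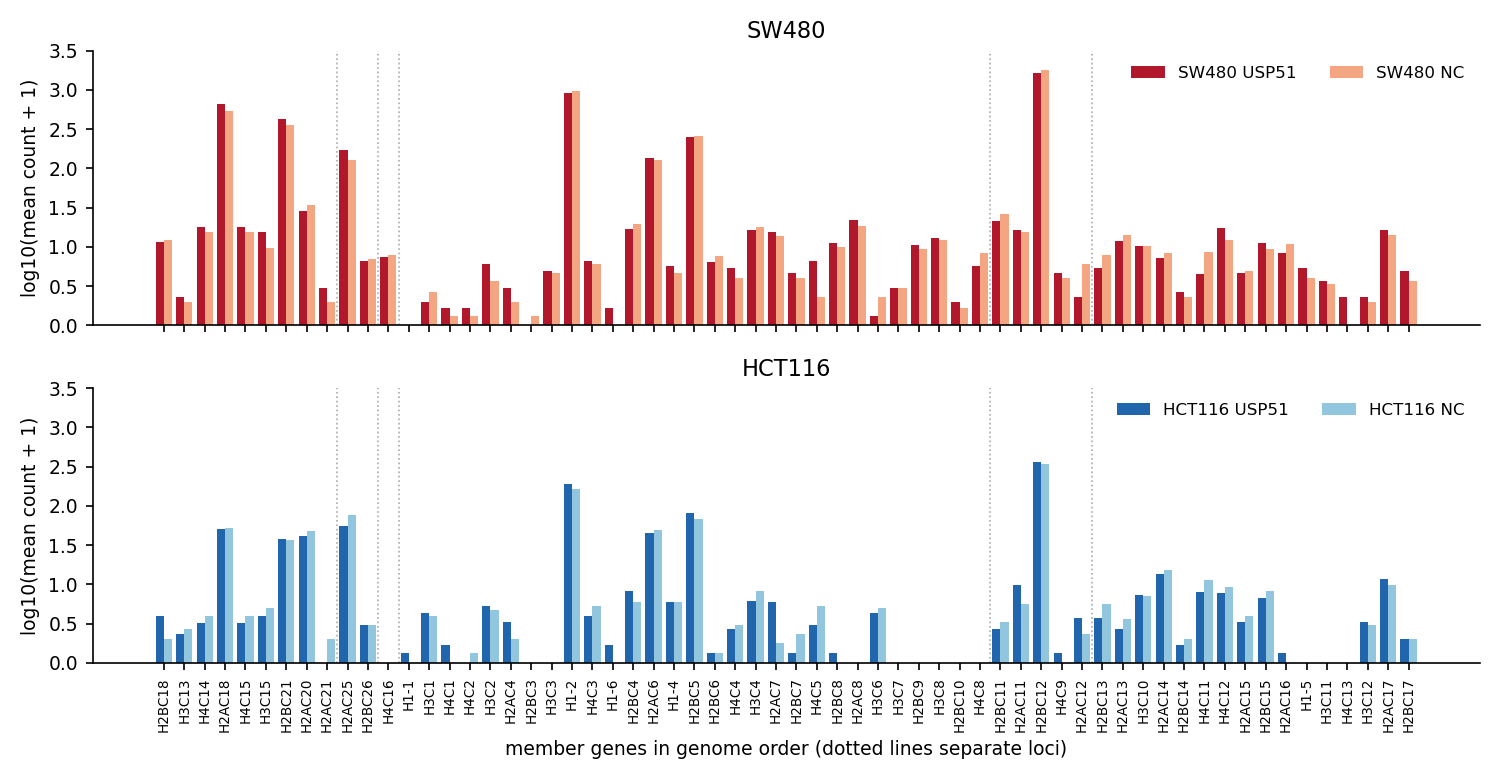
Mean count of each of the 62 members on a log10(count + 1) scale, in genome order, for SW480 (upper panel) and HCT116 (lower panel), with USP51 left of NC in each pair of bars and dotted lines between groups of genes at least 100 kb apart. The run from H2BC8 to H4C8 is nearly empty in HCT116, apart from H3C6, and filled in SW480.

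Within the 10 head-to-head pairs with windows, the H2A gene had the higher TPM in 7 in SW480 USP51, SW480 NC and HCT116 USP51 cells. It did so in 6 in HCT116 NC cells, where H2AC8 and H2BC8 were both at 0. The pair left out, H2AC12 and H2BC12, went the other way in all 4 groups. H2BC12 was at 274, 307, 65.0 and 59.7 TPM over SW480 USP51, SW480 NC, HCT116 USP51 and HCT116 NC cells. H2AC12 was at 0.68, 2.65, 1.45 and 0.69 TPM in the same order, on at most 5 counts. Genes that share a start region thus stood at different levels. H2AC6 was at 51.3, 50.02, 17.9 and 19.0 TPM over SW480 USP51, SW480 NC, HCT116 USP51 and HCT116 NC cells, while its partner H2BC4 was at 7.98, 9.56, 3.92 and 2.59 TPM. H2AC25 was at 67.9 and 52.6 TPM in the SW480 groups, with H2BC26 at 2.89 and 3.19 TPM. H2BC15 was above H2AC15 in all 4 groups, with 3.6, 3.02, 2.11 and 2.64 TPM against 1.55, 1.75, 1.05 and 1.30 TPM for H2AC15.

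Of the 10 pairs, 3 changed order between the lines in both USP51 and NC cells. H2BC21 was above H2AC20 in SW480 cells, at 19.8 against 11.9 TPM with USP51 and 17.6 against 14.6 TPM with NC. It was below H2AC20 in HCT116 cells, at 1.88 against 18.3 TPM with USP51 and 1.75 against 20.7 TPM with NC. TPM depends on the length of each model, which is long for H2BC21, but the change between lines is within each gene. H2BC11 was above H2AC11 in SW480 cells, at 9.38 against 6.67 TPM with USP51 and 11.9 against 6.36 TPM with NC, and below it in HCT116 cells, at 0.803 against 3.95 TPM with USP51 and 1.10 against 2.06 TPM with NC. H2BC13 was below H2AC13 in SW480 cells, at 2.30 against 4.60 TPM with USP51 and 3.83 against 5.86 TPM with NC, and above it in HCT116 cells, at 1.497 against 0.77 TPM with USP51 and 2.55 against 1.15 TPM with NC. The last of these rest on under 5 counts a gene in HCT116 cells. H2AC11 and H2BC11 were also shallow there, with 4.67 and 2.33 counts in NC cells and 8.67 and 1.67 with USP51.

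**Figure D5:**
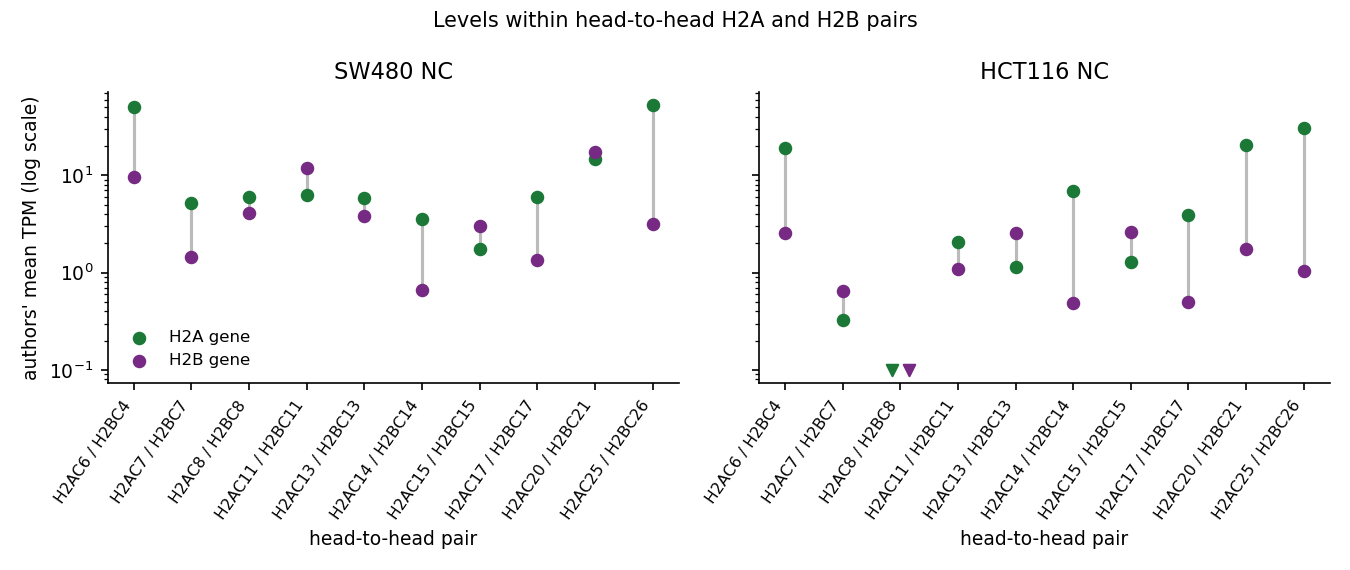
Mean TPM (log axis) of the H2A gene (green) and the H2B gene (purple) of each of 10 head-to-head pairs, in SW480 NC cells (left) and HCT116 NC cells (right). The pair of H2AC12 and H2BC12 is not shown. Triangles mark 0 TPM. The H2A gene is higher in 7 pairs in SW480 NC and in 6 in HCT116 NC cells, and the order differs between these groups in 4 pairs, those of H2AC7, H2AC11, H2AC13 and H2AC20. The pairs of H2AC7, H2AC11 and H2AC13 rest on 0.783 to 4.67 counts a gene in HCT116 NC cells.

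Genes that make and process histone mRNA were compared from a list of 27 genes. In SW480 cells 6 were higher and 21 lower with USP51, none by 1.5-fold, with a median log2 ratio of -0.07 against -0.04 over all genes. SLBP, which binds the stem-loop, was at 122 TPM in USP51 and 137 in NC cells, and the cap-binding NCBP2 at 59.9 and 82.0 TPM (log2 ratio -0.45). UPF1, a helicase in histone mRNA decay, was at 42.6 and 37.8 TPM. NPAT, the coactivator of histone genes, was at 7.72 TPM in USP51 and 8.16 in NC cells, and CASP8AP2 at 5.68 and 6.32 TPM.

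In HCT116 cells 11 of the 27 were higher and 16 lower with USP51, none by 1.5-fold, with a median of -0.03 against 0.04 over all genes. LSM10, of the U7 particle that cuts the mRNA, was at 76.3 TPM in USP51 and 91.7 in NC cells. SLBP was at 168 TPM in USP51 and 180 in NC cells. Between the lines, ERI1, an exonuclease that trims the stem-loop end, was at 8.68 TPM in SW480 NC and 49.4 in HCT116 NC cells, and SLBP at 137 and 180 TPM. Of the 27, 6 were at least 1.5-fold lower in SW480 NC cells, where 27% of all genes were, and 2 were at least 1.5-fold higher, where 22.6% were.

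The histones outside the rule, replication-independent variants for the most part, were compared in the same way. Of 21 in the table, 13 were measured in SW480 cells, and 5 were higher and 8 lower with USP51, none by 1.5-fold, with a median log2 ratio of -0.04 against -0.04 over all genes. H2AX, the variant phosphorylated at DNA breaks, was at 341 TPM in USP51 cells and 400 in NC cells of SW480. In HCT116 it was at 265 TPM in USP51 and 319 in NC cells.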

How the data were processed

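The deposited mRNA table lists 84345 RefSeq transcripts with 17818 gene identifiers, of which 17672 were matched to a symbol in RefSeq GRCh38.p14. The build hg38, TopHat and DESeq 1.32.0 come from the submitters' processing notes, with no role for either tool. The sources used here do not give the counting tool, use of strand or any poly(A) selection. Per the file headers, the authors deposited read counts, which are estimated counts that need not be whole, TPM and FPKM, each also as the mean of a group. Mean columns carry a cell line and the letter C or E, undefined in the labels. Here E was taken for the USP51 cells and C for the NC cells, and USP51 itself was higher in E of both lines. The 36 columns of single libraries could not be matched to labels and were not used, so no planned test between libraries was run.

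Transcript rows were summed per gene. Class sums were compared as ratios of counts per total count with a 95% exact Clopper-Pearson interval conditional on the summed count, after rounding means to whole counts. Intervals and floors (3 counts) cover counting error only, since reads without molecular identifiers are not independent molecules. Genes were compared on log2((TPM + 1)/(TPM + 1)) when at or above 1 TPM in at least 1 of the 2 groups, and counted from 1.5-fold. Named members had at least 20 counts in a group, led their class or stood beside that limit. Of the other lists, the gene with the largest ratio in each direction at 10 TPM or more and a few preset regulators were eligible to be named, and 1 gene so chosen is not reported here. Members and lists were chosen with earlier results of these data known. Python 3.11.15, pandas 2.3.3, scipy 1.17.1, R 4.3.3 and edgeR 4.0.16 (scaling factors only) were used. The scripts were tested on simulated data. Stem-loops came from GENCODE v29 transcripts (hg38), and promoters from RefSeq (GRCh38.p14), where 57 of 62 members had a window. Members that share reads with near-identical copies are uncertain, and 10 members had means that times 3 were not whole numbers within 0.05 (H2AC7, H2AC13, H2AC14, H2BC18, H2BC21, H3C4, H4C11, H4C12, H4C14 and H4C15). In all, 8 members overlap another gene, among them H2BC12, H2BC5 and H3C4.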

Additional observations from a re-analysis of the deposited data

How the results depend on the processing

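No paired analysis was possible because only the authors' group means could be matched to labels. For the same reason leaving out replicates, a replicate block, edgeR's quasi-likelihood test and DESeq2 were not run. No ratio changed direction among those past their interval or fold limit, and 119 of the alternative class values lay within their counting interval. On the log2 scale, removing the leading gene gave 0.51 for H1, 0.0812 for H2B and 0.0740 for all members with USP51 in SW480 cells, and between the lines 0.43 for H1 and 0.90 for H2A. Between the lines, TPM and FPKM gave 2.28 and 2.29 for H2B and 1.99 and 1.999 for all members, and the members under 20 counts alone gave 1.23, an alternative chosen after seeing the data. In SW480 cells 4 of 46 measured members were higher and 4 lower with USP51 at a pseudocount of 0.1 TPM. Of all 12175 genes, 150 were higher and 225 lower there. In HCT116 cells 4 of 34 measured members were higher and 2 lower at that pseudocount, where 501 and 51 of 12393 genes were. At 2-fold 1 member was higher and 0 lower, where 32 and 3 genes were. Members with at least 20 counts, CPM, and CPM with RLE or TMM factors each gave 0 higher and 0 lower in both lines. Over all genes these gave 56, 97, 106 and 106 higher and 95, 97, 91 and 91 lower in SW480 cells. In HCT116 cells they gave 226, 292, 257 and 255 higher and 13, 18, 22 and 23 lower. In the CPM settings 1 was added to each CPM value, so members far below 1 CPM could hardly reach 1.5-fold. Between the lines the same settings, in that order, gave 8 of 9, and 19, 20 and 20 of 47, members higher and 0 lower. Over all genes 2917 of 13244, and 2984, 3381 and 3382 of 13033, were higher. Lower were 3535, 3592, 3184 and 3181 of them. At 2-fold 1 member was lower, where 1914 of 13033 genes were. Depth limits most members: 52 of 62 had under 20 counts in every group.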

Other observations

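Genes of DNA synthesis and chromatin assembly were read beside the histones, as values without explanation. In SW480 cells all 20 S phase genes of the list were lower by TPM with USP51, none by 1.5-fold. The median log2 ratio was -0.13 against -0.04 over all genes. By counts per total GINS2 was not lower, at 1.02 (0.944 to 1.11). Of the 20, 10 had a counting interval below 1 and 0 above, where 14.2% and 13.6% of all genes did. CCNA2, the S phase cyclin, was at 71.2 TPM in USP51 and 90.7 in NC cells, and RRM2, a subunit of ribonucleotide reductase, at 267 and 332 TPM. In HCT116 cells 17 of the 20 were lower and 3 higher with USP51, with a median of -0.06 against 0.04. There 13 had a counting interval below 1 and 0 above, where 11.7% and 17.1% of all genes did. PCNA, the sliding clamp, was at 520 TPM in USP51 and 603 in NC cells. Between the lines 12 of the 20 were higher and 8 lower in SW480 NC than in HCT116 NC cells, with a median of 0.05. CDT1, a licensing factor, was at 42.7 TPM in SW480 NC and 103 in HCT116 NC cells, and RRM2 at 332 and 201 TPM.

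Of 21 histone chaperones and assembly factors, 6 were higher and 15 lower with USP51 in SW480 cells, and 12 were higher and 9 lower in HCT116 cells, none by 1.5-fold. The median log2 ratio was -0.07 against -0.04 over all genes in SW480 cells, and 0.0066 against 0.04 in HCT116 cells. ASF1B, an H3 and H4 chaperone, was at 105 TPM in USP51 and 124 in NC cells of SW480, and at 141 TPM in both groups of HCT116. HJURP, which loads the centromeric H3 variant CENPA, was at 52.7 TPM in SW480 USP51 and 66.2 in SW480 NC cells, and CENPA at 45.7 and 58.1 TPM. Between the lines 6 of the 21 were higher and 15 lower in SW480 NC than in HCT116 NC cells. By 1.5-fold 1 was higher and 4 were lower, where 22.6% and 27% of all genes were. Those named here are on the lower side. NASP, a chaperone of soluble H3 and H4, was at 129 TPM in SW480 NC and 222 in HCT116 NC cells. CHAF1A, of the assembly factor CAF1, was at 36.4 and 52.8 TPM in the same groups. TONSL, a reader of newly made H4, was at 17.1 TPM in SW480 NC and 78.0 in HCT116 NC cells.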
